A study of Mus musculus with 90 samples.

Results

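The cytosolic ribosomal protein genes were taken as every gene of the deposited table whose symbol starts with Rpl or Rps followed by a digit, together with Rplp0, Rplp1 and Rplp2. Symbols starting with Rps6k (kinases), symbols marked -ps (pseudogenes) and Rps27l were left out. The rule gave 87 of the 18223 genes in the table and used no measured value. Of these, 76 carry the name of a subunit protein (43 of the large subunit, 30 of the small subunit and 3 of the stalk), and 11 carry a symbol that marks a paralogue, a retrotransposed copy or a binding partner. A filter on low counts left 84 for testing. Rpl10l, Rpl39l and Rpl3l did not pass it.

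Liver RNA was sequenced from 90 female Diversity Outbred (J:DO) mice, an outbred stock whose animals differ from each other in genotype. The vehicle group of 41 mice received sterile distilled water by mouth, and the zileuton group of 49 mice received 300 mg/kg of zileuton, an inhibitor of 5-lipoxygenase, by the same route. Dosing was daily for 7 days in both groups, at an age of 6 to 20 weeks. Coats were agouti in 29 vehicle and 34 zileuton mice, black in 6 and 6, and white in 6 and 9. The libraries held between 12664579 and 41360187 estimated counts (median 25535799). Levels are given as CPM, the usual library-size scaled counts, after TMM normalization.

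The cytosolic ribosome builds all proteins encoded in the nucleus, from a small subunit that reads the messenger RNA and a large subunit that joins amino acids. Each subunit protein is needed in about equal amount, and many of them hold a part of the ribosomal RNA in place or touch the messenger, the transfer RNAs or the exit tunnel for the new chain. The messengers of these proteins start with a run of pyrimidines (C or T in the gene), called a 5′ terminal oligopyrimidine or TOP tract, through which the kinase complex mTORC1 and the RNA-binding protein Larp1 set how actively they are translated. Liver makes large amounts of secreted protein, and its ribosome content is known to follow feeding and the time of day.

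The gene starts of the family are shown here because the tract is the sequence feature that its members are known to share. RefSeq (GRCm38.p6) gave a start region for 66 of the 87 members. A run of at least 7 pyrimidines beginning with C was searched on the strand of the gene, from 25 bases before the RefSeq start to 50 after it. Such a run was found in 51 of these 66 members (77.3%), against 9444 of all 27025 genes with an entry (34.9%), and was 7 to 20 bases long with a median of 10. The search did not require the run to begin at the start, so a run found need not be a TOP tract. The windows of 30 bases below, 5′ to 3′, have that run in capitals. They show 5 members that were higher after zileuton (Rps26, Rps15, Rplp2, Rpl31, Rpl36a), the member that varied most closely with the rest (Rpl35), a gene with its retrotransposed copy (Rps27, Rps27rt), and 3 members outside the core set (Rpl32l, Rpl7l1, Rps19bp1), of which the last 2 hold no run.
Rps26, chr10:128626484-128626513, minus strand: agccgccggatCCTCTTTCgagtcttggct
Rps15, chr10:80292446-80292475, plus strand: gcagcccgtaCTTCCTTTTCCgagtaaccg
Rplp2, chr7:141447636-141447665, plus strand: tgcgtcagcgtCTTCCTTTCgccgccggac
Rpl31, chr1:39367824-39367853, plus strand: ctcgccacaCCTCTTCCTCCTCgcctcccc
Rpl36a, chrX:134585672-134585701, plus strand: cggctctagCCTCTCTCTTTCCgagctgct
Rpl35, chr2:39005115-39005144, minus strand: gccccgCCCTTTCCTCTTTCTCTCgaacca
Rps27, chr3:90213632-90213661, minus strand: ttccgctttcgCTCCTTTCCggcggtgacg
Rps27rt, chr9:114982705-114982734, minus strand: cggcggtgacgaCCTCCCTacgagaacatg
Rpl32l, chr10:20208429-20208458, plus strand: aaatgaccagCTTCTTCCTTggtgctgcct
Rpl7l1, chr17:46782637-46782666, minus strand: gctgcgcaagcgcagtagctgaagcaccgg
Rps19bp1, chr15:80264287-80264316, minus strand: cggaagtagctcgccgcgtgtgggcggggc

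Counted with the RefSeq start as base 1 and the base before it as 0, the run spans -17 to -5 in Rpl31. It spans -6 to 11 in Rpl35, -3 to 5 in Rplp2, -1 to 7 in Rps27 and 1 to 10 in Rpl32l. Further inside, it spans 5 to 12 in Rps26, 18 to 24 in Rps27rt, 26 to 36 in Rps15 and 28 to 40 in Rpl36a. The last 11 bases of the Rps27 window are the first 11 of the Rps27rt window. A match in these windows is a description of the letters and not of binding. Of the 49 tested members with a run, 14 were higher after zileuton and 0 lower, with a median log2 fold change of 0.10. Of the 14 tested members with an entry but without a run, 6 were higher and 1 lower, with a median of 0.11.

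After 7 days of zileuton, some of the ribosomal protein genes were higher by a small amount, and most did not pass the test. With edgeR's quasi-likelihood test and Benjamini-Hochberg adjustment over all genes, 25 of the 84 tested members were higher, 1 was lower and 58 did not pass an adjusted p of 0.05. Over all 13248 genes tested, 29.3% were called in either direction, 14.4% higher and 14.8% lower. The members' share of calls in either direction was therefore close to that of all genes, while the calls of members lay nearly all on the higher side. The log2 fold change was above 0 in 75 of the 84 members and in 47.3% of all tested genes. Members varied together among mice, with a median r of 0.53 between pairs, so these counts are not counts of independent genes. The median log2 fold change was 0.10 in the members, a 1.07-fold level, and -0.01 over all tested genes. Among the 7544 tested genes with an average CPM of at least 10, the median was 8e-04.

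**Figure D1:**
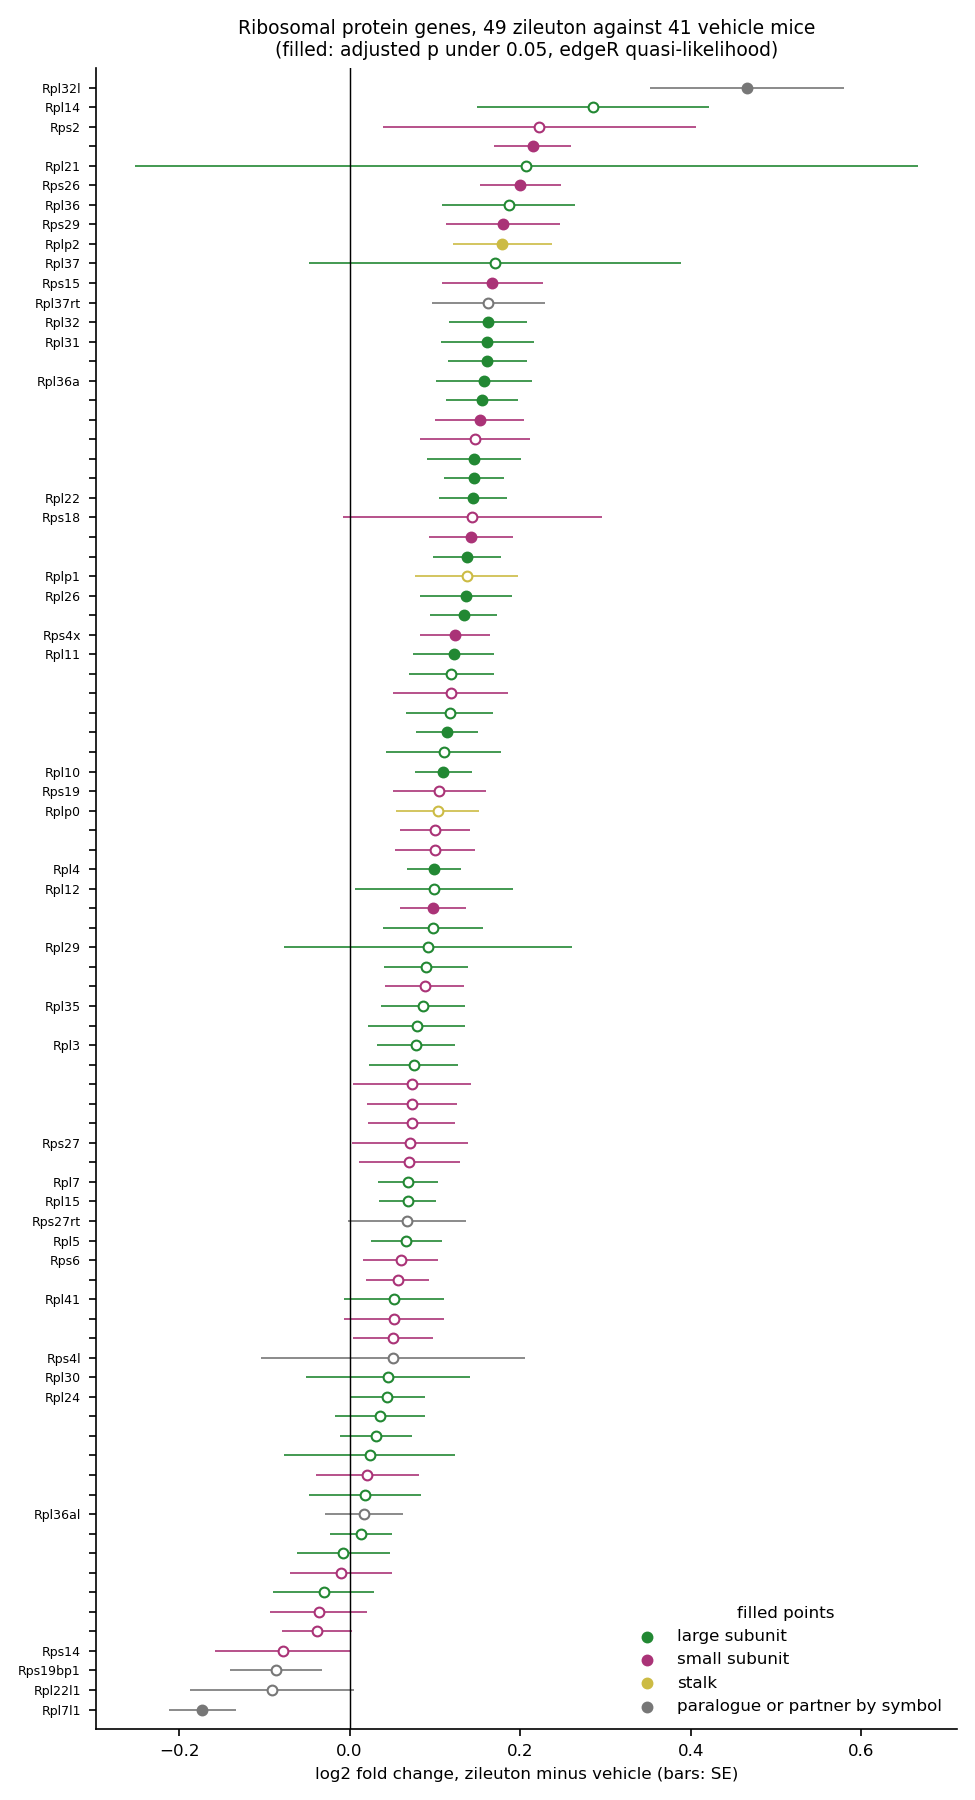
Each row is 1 of the 84 tested ribosomal protein genes, ordered by the log2 fold change of zileuton (49 mice) minus vehicle (41 mice) on the horizontal axis, with bars of 1 SE; rows of members described in the text carry their names. Filled points passed an adjusted p of 0.05 in edgeR's quasi-likelihood test; 25 of them lie right of 0 and 1, Rpl7l1, lies left of it.

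In the whole family the summed estimated counts took 0.75% of a vehicle library at the lowest, 0.918% at the median and 1.22% at the highest. In zileuton libraries the share was 0.829% at the lowest, 1.00% at the median and 1.39% at the highest, a ratio of medians of 1.09. The groups overlapped over most of their range, with 41 of 49 zileuton mice above the vehicle median but only 6 above the highest vehicle mouse, and 4 vehicle mice below the lowest zileuton mouse. Large subunit symbols and small subunit symbols had the same ratio of medians, 1.09 in each. Without the 5 most abundant members the ratio was 1.08. These are bulk samples, in which fewer cells of a type and less RNA per cell cannot be told apart.

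The animal numbers fall into 8 runs of 50 consecutive numbers, which the labels do not call batches. The median share was higher in zileuton mice in 7 of the 8 runs, the exception being the run numbered 7. The mean log2 CPM of the 76 core members was higher in zileuton in all 8 runs, by 0.06 in the run of the smallest difference and by 0.28 in run 8. Without run 8, 13 of 84 members were higher and 1 lower, against 13.2% and 12.9% of all genes. Within each run all vehicle mice hold positions 13 to 20 and all zileuton mice positions 25 to 50, so treatment and position within the run cannot be told apart. With position as a term in edgeR's test, 0 of 84 members passed an adjusted p of 0.05. Over all genes 262 of 13861 passed it, 1.5% higher and 0.39% lower. At an unadjusted p under 0.05, 35 members were higher and 0 lower. The share of all genes at that unadjusted threshold was not counted, so the 35 cannot be read against it. The median log2 fold change of the members in that fit was 0.21.

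**Figure D2:**
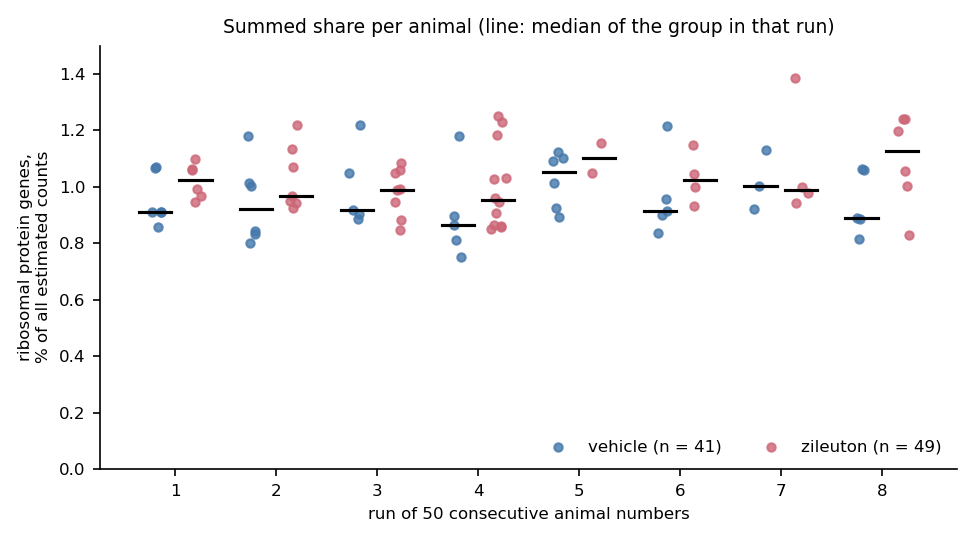
Each point is 1 animal, with the share of all its estimated counts that fell on the 87 ribosomal protein genes on the vertical axis and its run of 50 animal numbers on the horizontal axis; black lines are medians of a group within a run. The zileuton line lies above the vehicle line in 7 of 8 runs, and points of both groups overlap in each run.

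Measured features of the libraries moved with the groups, and their part in the result was not tested. A clock score, the mean scaled level of genes that peak opposite to Bmal1 minus that of genes that peak with it, had a median of -1.54 in vehicle and 1.29 in zileuton mice. With this score as a term in edgeR's test, 0 of 84 members passed an adjusted p of 0.05. Over all genes 452 of 14120 passed it, 2.22% higher and 0.977% lower. At an unadjusted p under 0.05, 7 members were higher and 0 lower, and the matching share of all genes was not counted. In that fit the members' median log2 fold change was 0.06. Within the groups the score had an r of 0.13 with the mean level of the core members. Of the 9 libraries of lowest total, 7 were vehicle and 2 zileuton. The 7 had a median member share of 1.18% and the 2 one of 0.902%, and 6 of the 9 lay above the median of their group. Without these 9 libraries 45 members were higher and 1 lower, with a median log2 fold change of 0.14. Over all genes 15.5% were higher and 15.5% lower in that fit. Plate row and column as terms left 8 of 84 members higher and 1 lower, against 12.3% and 10.6% of all genes. Agouti mice alone gave 5 of 84 higher and 1 lower, against 10.9% and 10.5% of all genes. In both fits the members' share of higher calls was below that of all genes. Of 5 hepatocyte markers (Alb, Apoa1, Ttr, Serpina1c, Cps1), 4 were lower after zileuton, and their summed level had medians of 123200 CPM in vehicle (84880 to 175000) and 107000 CPM in zileuton (67300 to 164500). Of the markers of other cells, 0 of 5 were called for Kupffer cells, 1 of 4 for lymphocytes, 1 of 4 for endothelium and 1 of 4 for cholangiocytes, each lower, and for stellate cells 1 of 4 was higher and 1 lower. For pancreas the 1 tested marker was lower. The 2 measured pancreas markers summed to medians of 28.1 CPM in vehicle (1.98 to 83.0) and 11.9 CPM in zileuton (5.47 to 57.5). For erythroid cells 0 of 3 were called, and for plasma cells 0 of 1. Skeletal muscle markers summed to 2511 CPM in vehicle replicate 8 and 1706 CPM in zileuton replicate 24, and to at most 1.01 CPM elsewhere. Without these 2 libraries the count of members was again 25 higher and 1 lower, against 14.5% and 14.5% of all genes.

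Among small subunit genes, 8 of 30 were higher and none was lower. Rps26 sits where the messenger leaves the small subunit. It had 60.3, 78.4 and 117 CPM (lowest, median, highest) in vehicle and 66.6, 90.03 and 128 CPM in zileuton mice. The ranges overlapped widely, with the zileuton range reaching above the highest vehicle mouse, and 41 of 49 zileuton mice lay above the vehicle median. Its log2 fold change was 0.20 ± 0.047 (SE), with an edgeR adjusted p of 5.36e-04. Rps26 was called in all 90 fits that left out 1 library and in 25 of 27 other settings. Rps29, a small zinc-binding protein of the subunit head, went from a median of 48.6 CPM (32.5 to 83.5) in vehicle to 53.5 CPM (39.1 to 94.7), a log2 fold change of 0.18 ± 0.067 with an edgeR adjusted p of 0.0336. The ranges overlapped over most of their length, and 33 of 49 zileuton mice were above the vehicle median. Rps15, which lies in the head near the decoding site, went from a median of 164 CPM (114 to 257) to 178 CPM (101 to 285), a log2 fold change of 0.17 ± 0.059 with an edgeR adjusted p of 0.0246.

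Rps6, the substrate of the S6 kinases, is the protein whose phosphorylation is commonly read as mTORC1 activity. Its messenger did not pass the test. It had a median of 228 CPM (172 to 331) in vehicle and 241 CPM (178 to 305) in zileuton, a log2 fold change of 0.06 ± 0.044 with an edgeR adjusted p of 0.327. The zileuton range lay inside the vehicle range at both ends.

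Among large subunit genes, 15 of 43 were higher and none was lower. Rpl32 had 120 CPM at the lowest, 147 at the median and 236 at the highest in vehicle, and 130, 168 and 232 CPM in zileuton mice. The ranges ended at about the same level, but 41 of 49 zileuton mice lay above the vehicle median. Its log2 fold change was 0.16 ± 0.045 with an edgeR adjusted p of 0.00361. Rpl31, which lies by the exit of the peptide tunnel, had medians of 32.5 CPM (25.3 to 54.95) and 35.99 CPM (26.5 to 55.5), a log2 fold change of 0.16 ± 0.055 with an edgeR adjusted p of 0.0186. Rpl36a, at the site from which spent transfer RNA leaves, had medians of 35.4 CPM (28.4 to 50.2) and 38.2 CPM (29.5 to 58.8), with 0.16 ± 0.056 and an edgeR adjusted p of 0.026. For both, 32 of 49 zileuton mice were above the vehicle median, the fewest among the members called higher. The pseudogene column Rpl31-ps12, which the rule leaves out, had a mean of 79.3 CPM against 35.35 CPM for Rpl31. It was not called, with a log2 fold change of -0.02 ± 0.046 (edgeR adjusted p 0.831). How reads were divided between the 2 columns was not tested.

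Rpl5 and Rpl11 bind 5S ribosomal RNA together, and as free proteins they bind Mdm2, the ligase that marks p53 for breakdown. Rpl11 had medians of 110 CPM (83.2 to 150) in vehicle and 116 CPM (92.9 to 198) in zileuton, a log2 fold change of 0.12 ± 0.048 with an edgeR adjusted p of 0.0433. Rpl5 had medians of 168 CPM (131 to 242) and 175 CPM (134 to 258), a log2 fold change of 0.07 ± 0.042 that did not pass, with an edgeR adjusted p of 0.234. The 2 partners thus lay on different sides of the threshold, and the difference between them was not tested. The call of Rpl11 held in 62 of the 90 fits that left out 1 library. Over the 24 core members called higher, the log2 fold change ran from 0.10 to 0.21.

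The stalk proteins bring the elongation factors to the ribosome, with Rplp0 as the base and Rplp1 and Rplp2 as the acidic arms. Rplp2 had 38.8 CPM at the lowest, 79.5 at the median and 124 at the highest in vehicle, and 59.7, 89.1 and 120 CPM in zileuton mice. The zileuton range lay within the vehicle range, and 37 of 49 zileuton mice were above the vehicle median. Rplp2 had a log2 fold change of 0.18 ± 0.058 with an edgeR adjusted p of 0.0127. The pseudogene column Rplp2-ps1, which the rule leaves out, had a mean of 129 CPM against 85.8 CPM for Rplp2. It was not called, with 0.12 ± 0.060 (edgeR adjusted p 0.12). Rplp1 had medians of 366 CPM (256.3 to 619) and 401 CPM (262 to 623), a log2 fold change of 0.14 ± 0.060 with an edgeR adjusted p of 0.0756. Rplp0, often used as a reference gene in PCR, had medians of 332 CPM (252 to 519) and 357 CPM (265 to 474), a log2 fold change of 0.10 ± 0.049 with an edgeR adjusted p of 0.104.

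By length, the most abundant member was Rplp1, with a mean level over all mice of 793 CPM per kilobase of transcript. It was followed by Rpl41, one of the smallest proteins known, at 484, by Rpl10, which joins the large subunit last and lies near the bound transfer RNAs, at 458, by Rps15 at 353 and by Rpl4, which lines the exit tunnel, at 311 CPM per kilobase. The tested members had a median of 122 CPM per kilobase. The lowest, 5.65, belonged to Rpl30. Rpl10 and Rpl4 were called higher after zileuton, with log2 fold changes of 0.11 ± 0.034 (edgeR adjusted p 0.00812) and 0.10 ± 0.032 (edgeR adjusted p 0.0113), and Rpl41 was not (0.05 ± 0.059, edgeR adjusted p 0.542).

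Rpl7l1 was the only member that was lower. It is a paralogue of the large subunit protein Rpl7 and is known from early particles of the large subunit in the nucleolus. Its level was 46.9 CPM at the lowest, 59.7 at the median and 87.0 at the highest in vehicle, and 40.4, 53.7 and 74.0 CPM in zileuton mice. Only 10 of 49 zileuton mice lay above the vehicle median, while the ranges overlapped widely. The log2 fold change was -0.17 ± 0.039 with an edgeR adjusted p of 3.19e-04, and it was called in all 90 fits that left out 1 library. With position within the run as a term the log2 fold change was 0.08, so its direction turned. Its parent Rpl7 had medians of 244 and 255 CPM, a log2 fold change of 0.07 ± 0.035 that did not pass (edgeR adjusted p 0.13). The gene most correlated with Rpl7l1 among all tested genes was Bysl, an assembly factor of the small subunit that lies 0.825 Mb away on chromosome 17, with an r of 0.68 over 90 mice.

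Rpl32l, a copy of Rpl32 on chromosome 10, had the largest change. It had 1.91 CPM at the lowest, 4.46 at the median and 8.49 at the highest in vehicle, and 2.16, 5.50 and 12.4 CPM in zileuton mice. The highest zileuton mice exceeded all vehicle mice, and 35 of 49 lay above the vehicle median. Rpl32l had a log2 fold change of 0.47 ± 0.11 with an edgeR adjusted p of 7.75e-04. Its mean level was 3.34% of that of Rpl32, and 98.9% of its values were not whole numbers.

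The other paralogues and partners did not pass the test. Rpl22l1, which can take the place of the RNA-binding large subunit protein Rpl22, had medians of 21.7 CPM (13.8 to 53.5) and 22.7 CPM (9.02 to 42.3), a log2 fold change of -0.09 ± 0.096 (edgeR adjusted p 0.515). Rpl22 itself was higher, from a median of 87.8 CPM (74.7 to 119) to 94.9 CPM (75.7 to 139), with 43 of 49 zileuton mice above the vehicle median and a log2 fold change of 0.15 ± 0.040 (edgeR adjusted p 0.00292). The difference between the 2 genes was not tested. Rps19bp1, a binding partner of Rps19, had a log2 fold change of -0.09 ± 0.054 (edgeR adjusted p 0.233), and Rps19 one of 0.11 ± 0.054 (edgeR adjusted p 0.136). The pseudogene column Rps19-ps3, which the rule leaves out, was called higher, with 0.28 ± 0.093 (edgeR adjusted p 0.0165). Rpl36al had a mean level of 148 CPM against 38.7 CPM for its parent Rpl36a, and a log2 fold change of 0.02 ± 0.046 (edgeR adjusted p 0.818). Rps4l had a median of 8.14 CPM in vehicle and 7.90 CPM in zileuton mice, against 226 and 258 CPM for Rps4x, the X-linked gene of the same protein family, which was higher with 0.12 ± 0.041 (edgeR adjusted p 0.015).

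The 3 untested members were at or near 0 in most mice. Rpl10l, known from the testis, had any count in 11 of 90 mice and reached 0.0893 CPM, and Rpl39l had any count in 19 mice and reached 0.21 CPM. Rpl3l, the form of Rpl3 of skeletal and heart muscle, reached 28.2 CPM in vehicle replicate 8 and 10.5 CPM in zileuton replicate 24. These are the 2 libraries with skeletal muscle markers. In the other 88 libraries it reached at most 0.279 CPM.

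The members rose and fell together from animal to animal. After removal of the group means, the Pearson r of a member with the mean log2 CPM of the other tested members had a median of 0.74 over 90 mice. It was at least 0.5 for 68 members and under 0.3 for 9. The median r between pairs of members was 0.53, against -0.004 between pairs among 2650 tested genes taken at even steps through the table. These values share library scaling and depth, and are given as descriptions. The mean level of the core members had an r of -0.30 with the log2 library total. The closest to the rest were Rpl35, with an r of 0.92, Rpl11 with 0.90 and Rpl36a with 0.89. The farthest were Rpl21 with 0.02, Rps4l with 0.11 and Rpl37 with 0.13.

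For 60 of the 84 members the gene with the largest absolute r among all tested genes was another member. Of the ribosomal protein genes whose symbols fall outside the rule, Rpsa, Rack1 and Fau followed the members, with r of 0.75 for Rpsa, 0.75 for Rack1 and 0.68 for Fau. The growth-related TOP messenger Tpt1 had an r of 0.76 and the elongation factor subunits Eef1b2, Eef1g and Eef1d had 0.76, 0.65 and 0.62. Eef1a1 and Eef2 had 0.39 and 0.19, and the 14 elongation and termination genes had a median r of 0.44, with 6 at 0.5 or more. The 78 mitochondrial ribosomal protein genes had a median r of 0.40, the 37 initiation factors 0.14, the 81 genes of ribosome assembly and RNA polymerase I 0.05, and the 31 genes of mTORC1 signalling -0.09.

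**Figure D3:**
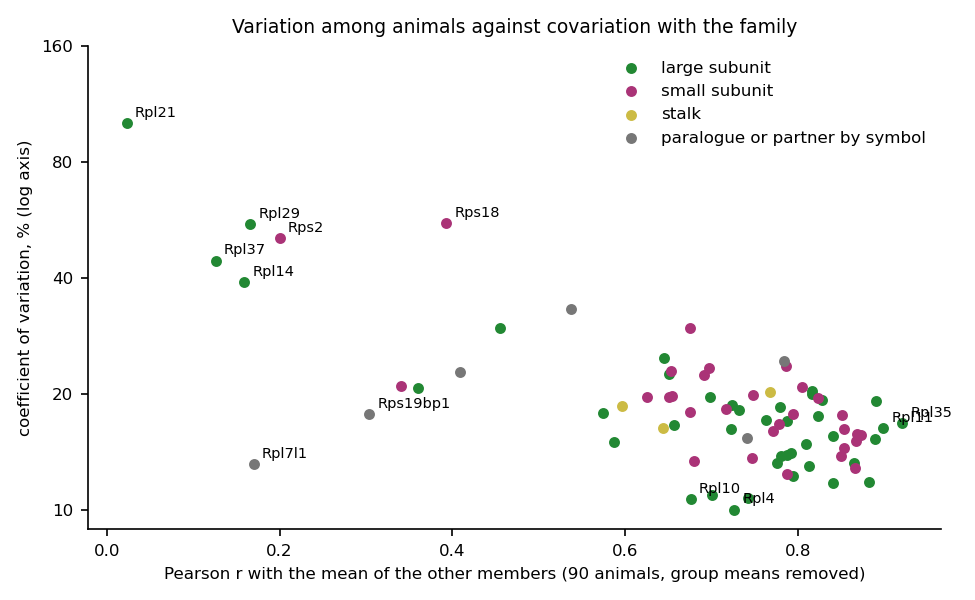
Each point is 1 of the 80 members with a mean of at least 10 CPM, with its Pearson r with the mean of the other members (90 mice, group means removed) on the horizontal axis and its coefficient of variation among mice, on a log axis, on the vertical axis. Most members lie at the lower right, and Rpl21, Rpl29, Rps2, Rpl37 and Rpl14 stand apart at the upper left with an r of 0.02 to 0.20.

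Variation between mice differed widely among members. The coefficient of variation within groups had a median of 17.8% in the tested members and 20.5% over all tested genes. At a mean of at least 10 CPM the medians were 17.7% over 80 members and 15.6% over 7516 genes, the members' median being the higher at that minimum. The evenest members were Rpl4 with 10.01%, Rpl10 with 10.7% and Rpl15 with 10.7%. The most variable were Rpl21 with 101%, Rps18 with 55.4% and Rpl29 with 55%. Only 5 members of at least 10 CPM had 40% or more, and 57 had less than 20%. Rps2 had 50.7%, Rpl37 44.3% and Rpl14 38.9%. Rps2 and Rpl14 were chosen after their values were seen.

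The levels of Rpl21, a large subunit protein whose gene lies at chr5:146832890-146837032 on the plus strand (GRCm38), fell into separate sets. In 41 mice, 22 vehicle and 19 zileuton, it had 0.219 to 1.79 CPM with a median of 0.535. In the other 49 mice it had 17.9 to 57.7 CPM, and no mouse lay between 1.79 and 17.9 CPM. Both groups held mice of both sets. Within the upper set the medians were 26.4 CPM in vehicle (17.9 to 57.7) and 25.7 CPM in zileuton (18.4 to 54.6), so the ranges coincided. Over all mice the log2 fold change was 0.21 with an SE of 0.46 and an edgeR adjusted p of 0.779. Transcripts of 116 other genes share sequence with Rpl21, and 56.5% of its 31-base stretches also occur in a transcript of another gene. Whether reads of Rpl21 were counted under such genes in the mice of the lower set was not tested. A low value in this column therefore need not be a low level of the messenger.

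Rpl37 had 0.145 to 0.581 CPM in 6 mice, 3 of each group, and 13.5 to 54.2 CPM in the other 84. Its retrotransposed copy Rpl37rt, on chromosome 5, had 108 to 183 CPM in those 6 mice with a median of 127, and 64.0 to 153 CPM with a median of 91.8 in the others. The levels of the pair ran against each other over the 90 mice, with an r of -0.52. The coefficient of variation was 44.3% for Rpl37, 22.8% for Rpl37rt and 16.2% for their sum, most of which is Rpl37rt. The copy had a mean of 96.7 CPM against 28.3 CPM for Rpl37. Of the 31-base stretches of the Rpl37 transcript, 35.3% also occur in a transcript of Rpl37rt. Neither passed the test of treatment, with log2 fold changes of 0.17 ± 0.22 (edgeR adjusted p 0.602) and 0.16 ± 0.067 (edgeR adjusted p 0.055).

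Rpl14 and the pseudogene column Rpl14-ps1, which the rule leaves out, showed the same kind of pattern. Rpl14 had 5.62 and 6.92 CPM in 2 mice, 1 of each group, and 13.95 to 96.7 CPM in the rest. In those 2 mice Rpl14-ps1 stood at 226 and 229 CPM, above the 88.4 to 224 CPM of all others. The r between the pair was -0.57. Of the 31-base stretches of Rpl14, 54.3% are also in Rpl14-ps1. The log2 fold change of Rpl14 was 0.29 ± 0.14, which did not pass (edgeR adjusted p 0.104).

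Rps27 and Rps27rt ran together from mouse to mouse. Rps27 had 13.2 to 37.4 CPM with a median of 20.2, and Rps27rt 14.5 to 41.6 CPM with a median of 21.4, with an r of 0.99. Of the 31-base stretches of Rps27, 98.7% occur in Rps27rt, and 98.9% to 100% of the values of both are not whole numbers. With so much shared sequence the 2 columns cannot be told apart. Neither was called, with log2 fold changes of 0.07 ± 0.068 and 0.07 ± 0.069 (edgeR adjusted p 0.461 and 0.506).

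**Figure D4:**
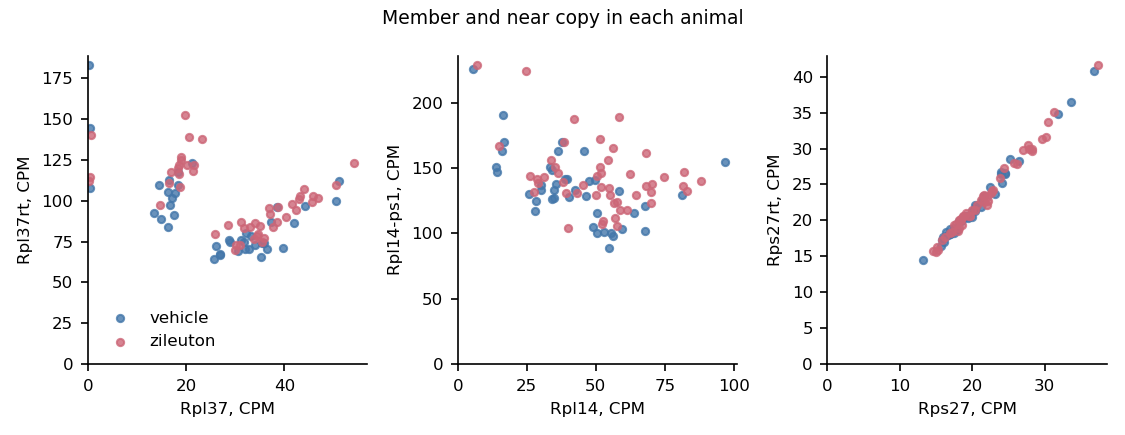
Each point is 1 mouse, with the CPM of a member on the horizontal axis and of its near copy on the vertical axis. Rpl37 and Rpl37rt (r -0.52) and Rpl14 and Rpl14-ps1 (r -0.57) run against each other, and Rps27 and Rps27rt (r 0.99) lie on a line.

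Rps2, which shapes the channel where the messenger enters the small subunit, had 8.88 to 26.6 CPM in 10 mice, 5 of each group, and 44.3 to 223 CPM in the other 80. Rps18, in the head of the small subunit, had 32.1 to 183 CPM in vehicle and 23.03 to 173 CPM in zileuton mice, with medians of 49.0 and 52.2. Rpl29, a protein of the large subunit that mice can live without, had 19.4 to 107 CPM and 19.9 to 115 CPM, with medians of 37.5 and 41.8 CPM. In all 3 the ranges of the groups overlapped widely, Rps2 with 13.4 to 188 CPM in vehicle and 8.88 to 223 CPM in zileuton mice. Their log2 fold changes of 0.22 ± 0.18, 0.14 ± 0.15 and 0.09 ± 0.17 did not pass (edgeR adjusted p 0.384, 0.515 and 0.731). Most of their 31-base stretches also occur in a transcript of another gene, 85.3% for Rps2, 90.75% for Rps18 and 86.8% for Rpl29. How reads were divided between these members and such genes was not tested.

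**Figure D5:**
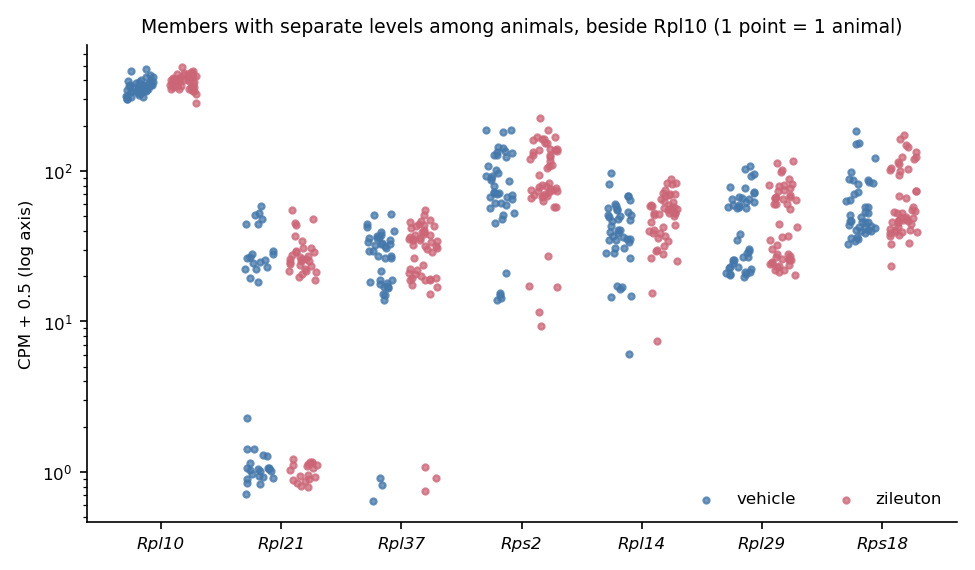
Each point is 1 mouse, with CPM plus 0.5 on a log axis, for 6 members that vary widely and for Rpl10, which does not. Rpl21 splits into sets of 41 and 49 mice and Rpl37 into 6 and 84, and vehicle and zileuton mice occur in each set.

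For 11 members the most correlated gene lay within 5 Mb on the same chromosome. The examples were chosen after their values were seen. Rpl29 had an r of 0.74 with Abhd14a, which lies 0.0106 Mb away. Rps18 had an r of -0.68 with H2-Q4 at 1.43 Mb and of 0.66 with H2-K1 at 0.044 Mb, both class I genes of the major histocompatibility complex, which differs strongly between mouse strains. Rpl37 had an r of 0.53 with Fbxo4 at 1.15 Mb, and Rpl12 one of -0.60 with Lrsam1 at 0.0363 Mb. Rpl36 had 0.73 with Ubxn6 at 0.546 Mb, Rpl14 -0.58 with Ctnnb1 at 0.358 Mb, and Rps2 -0.49 with Srpk1 at 3.87 Mb. Genotypes were not analysed here, and the cause of these patterns was not tested. Rpl26 and the column Gm15772 on another chromosome had an r of 0.99. Of the 31-base stretches of Rpl26, 69.8% occur in Gm15772.

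Shared sequence was common in the family. Over 84 members with a coding transcript in GENCODE M21, a median of 64.0% of the 31-base stretches also occur in a transcript of another gene, and 61 members share more than 50%. In 34 members over 50% of values were not whole (tolerance 0.01), and in 45 no value was off a whole number. The tested members of the 2 kinds had alike median log2 fold changes of 0.11 and 0.09, with 11 of 34 and 13 of 42 called higher. Of the 61 members that share more than 50%, 29 had no value off a whole number. The 2 kinds therefore do not separate members by shared sequence. Members have short transcripts, with a median length of 827 bases against 2842 for all tested genes. Genes outside the family of 500 to 1000 bases had a median log2 fold change of 0.01. With the trends of GC content and length removed from each library, 28 members were higher and 1 lower. In that fit 15.1% of all genes were higher and 16.3% lower. The part of length in the result was not tested beyond these values.

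Coat colour gave no called member, and calls were rare among all genes as well. Neither black against agouti nor white against agouti gave a called member (edgeR's quasi-likelihood test with treatment as a term, 0 and 0 of 84), against 0.043% and 0.0215% of all genes. At an unadjusted p under 0.05 there was 1 member for black and 2 for white. With DESeq2 size factors the counts were the same, 0 called and 1 and 2 unadjusted. The interaction of treatment with coat colour gave 0 of 84 members, 0 of them at an unadjusted p under 0.05, and 0% of all genes. The member for black was Rpl4, with a log2 fold change of 0.10 and an edgeR adjusted p of 0.728. Those for white were Rps14, with -0.27 and an edgeR adjusted p of 0.581, and Rpl37rt, with an edgeR adjusted p of 0.697.

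Treatment did not change the spread between mice in a called way. The mean absolute deviation from the group median of log2 CPM was larger in zileuton for 50 members and smaller for 33, and limma gave 0 called members, 3 at an unadjusted p under 0.05 (Rps19bp1, Rpl32l and Rpl24, each wider in zileuton) and 0.059% of all genes, 0.0422% wider and 0.0169% narrower. The lowest p belonged to Rps19bp1, with 0.17 in vehicle and 0.24 in zileuton mice and a limma adjusted p of 0.473.

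Genes that work around the ribosome were counted from lists with the same test, in which 14.4% of all genes were higher and 14.8% lower. Of the ribosomal protein genes outside the symbol rule, none of the 3 given here was called. Fau had a log2 fold change of 0.10 ± 0.049, Rack1 0.05 ± 0.036 and Rpsa -0.02 ± 0.055, with edgeR adjusted p of 0.137, 0.316 and 0.782. Of 37 initiation factor genes 7 were higher, 7 lower and 23 not called, with a median log2 fold change of 0.004. Of 14 elongation and termination genes 3 were higher, 1 lower and 10 not called. The 2 main elongation factors were among the higher, Eef1a1 with medians of 4017 and 4378 CPM (0.13 ± 0.035, edgeR adjusted p 0.00205) and Eef2 with 1445 and 1580 CPM (0.14 ± 0.039, edgeR adjusted p 0.00403). The other higher gene was Eef2k, the kinase of Eef2, with medians of 11.05 and 14.6 CPM (0.44 ± 0.075, edgeR adjusted p 2.19e-06). The lower gene was Gspt1 (-0.12 ± 0.035, edgeR adjusted p 0.00489). Tpt1 did not pass (0.03 ± 0.043, edgeR adjusted p 0.682).

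Of 81 genes of ribosome assembly and RNA polymerase I, 7 were higher, 9 lower and 65 not called, with a median log2 fold change of -0.02. Of 31 genes of mTORC1 signalling and TOP control, 7 were higher, 2 lower and 22 not called, with a median of 0.04. Over all tested genes 29.3% were called in either direction, and the 9 of 31 called here are close to that share. All 9 called genes of this list are given here, and they do not share one role in the pathway. Higher were Mtor, the kinase itself (0.29 ± 0.048, edgeR adjusted p 1.005e-06), its substrate Rps6kb1 (0.09 ± 0.034, 0.0353), the GTPase Rragc (0.11 ± 0.027, 8.09e-04) and the growth regulator Myc (0.65 ± 0.16, 0.00127). Also higher were 3 inhibitors of the complex, Sesn2 (0.43 ± 0.078, edgeR adjusted p 5.27e-06), Ddit4 (0.94 ± 0.24, 0.00167) and Deptor (0.16 ± 0.055, 0.0202). Lower were Larp1, which binds the TOP tract (-0.24 ± 0.047, edgeR adjusted p 3.38e-05), and Lamtor1, part of the lysosomal anchor of the complex (-0.14 ± 0.036, 9.85e-04). Median levels of Mtor were 43.1 and 51.2 CPM in vehicle and zileuton mice, those of Larp1 135 and 114 CPM, and those of Ddit4 8.40 and 9.03 CPM, with the highest zileuton mouse at 138 CPM for Ddit4. Of 78 mitochondrial ribosomal protein genes, which serve a separate ribosome, 10 were higher, 6 lower and 62 not called, with a median of 0.01 beside the 0.10 of the cytosolic family. The difference between the families was not tested.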

How the data were processed

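Per the labels' protocols, RNA came from 25 mg of liver per mouse, only samples with an RNA integrity of 8 or more were kept, and libraries were made with a TruSeq kit and read on an Illumina instrument. The deposited raw table holds an estimated count (expected count) per gene and animal. The second deposited table holds a normalized signal, those counts divided by 1 factor per library, and was used only as an alternative. Partek, STAR and DESeq2 are listed without versions in the submitters' processing notes, as is the genome build mm10. How reads were counted, on which annotation and with what strand setting, is not given here by any source. Estimated counts were rounded to whole numbers and fitted with edgeR 4.0.16 (R 4.3.3; TMM, robust quasi-likelihood F test, filterByExpr, two-sided, Benjamini-Hochberg over all tested genes at 0.05). Coat colours were compared in a fit with treatment as a term, and spread with limma 3.58.1 on absolute deviations (prior count 2). Levels are as lowest, median and highest over 41 vehicle or 49 zileuton mice, and ± is the SE of the log2 fold change. DESeq2 1.42.0 and other settings were alternatives. The fits were tested on simulated data. No 2 libraries were copies of each other: the closest of 4005 pairs differed by a scaled square of 54.9 per gene, where counting noise gives about 1. Replicates are separate animals. Symbols were matched to GENCODE M21 (build GRCm38, 17848 of 18223 genes, all 87 members). Precision is set by the spread between mice, at a median biological coefficient of variation of 17.6% in the members.

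The members and lists were chosen with earlier results of these data known. Named were the 10 called members of largest change per direction, the lowest p per direction, the 5 most abundant per kilobase, the 3 of highest and lowest variation, the 3 most and least correlated, all paralogues and partners with their parents, Rpl5, Rpl11, Rps6, the stalk genes, and Rpsa, Fau, Rack1, Eef1a1, Eef2 and Tpt1. Up to 5 members by p were named for coat colour and spread. Some genes that this rule names are not reported here.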

Additional observations from a re-analysis of the deposited data

How the results depend on the processing

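The count of called members (26, of them 25 higher) lay between 18 and 34 under the other scalings, filters and tools, the authors' normalized values, coat colour or run as a term, GC and length offsets, and leaving out each of runs 1 to 7. In these fits 17 to 33 members were higher and 1 lower. Over all genes 11.8% to 16% were higher and 11.1% to 16.4% lower. The count of members was 9 with plate row and column as terms, 0 with position within the run, 0 with the clock score, 46 without the 9 libraries of lowest total, 6 in agouti mice alone and 14 without run 8. The shares of all genes in those fits are given above. Leaving out 1 library at a time gave 22 (without zileuton replicate 47) to 33 (without vehicle replicate 15) called members and a median log2 fold change of 0.086 to 0.11. Without vehicle replicate 8, 22 members were higher against 14.3% of all genes, and the shares for the other such fits are not given here. The median log2 fold change of the members was 0.21 with position and 0.06 with the clock score as a term. Leaving out the 2 libraries with muscle markers together was chosen after seeing the data and gave 26. Counts for coat colour and spread were 0 in each alternative run. Members named only by p for coat colour or spread are left out of the next count. The direction of a member named by the rule turned in 17 pairs of member and setting. With plate terms these were Rpl22l1 (0.0019) and Rps4l (-0.033). With position they were Rpl7l1 (0.076) and Rps19bp1 (0.22). With the clock score they were Rpl3 (-0.0084), Rpl7 (-0.0084), Rplp0 (-0.019), Rps18 (-0.089), Rps19bp1 (0.094) and Rps6 (-0.015). Rps2 (-0.093), which is outside the rule, turned in that fit too, as did further members outside it. In agouti mice the named members that turned were Rpl36al (-0.011) and Rps4l (-0.032). Rpl21 (-0.072) and Rps4l (-0.0033) turned without run 3, Rps4l without run 4 (-0.044) and without zileuton replicate 2 (-0.0099; over all 90 such fits -0.0099 to 0.0966), and Rpl36al without run 8 (-0.015). Rps14, named for coat colour, turned in 2 of 27 settings other than leaving out 1 library, with log2 fold changes of -0.12 to 0.21. Outside the rule, turns were most frequent in Rpl9 (10 of those 27 settings), Rps21 (8) and Rpl34 (7). Causes were not tested. No paired analysis was possible because the labels give no replicate numbers that link a vehicle with a zileuton mouse. Depth sets no limit for most members, but Rpl30, Rpl34 and Rpl32l have means under 6 CPM.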
